A study of Mus musculus with 6 samples.

Results

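The 9 genes described here, Dcn, Bgn, Aspn, Lum, Fmod, Prelp, Omd, Ogn and Podn, encode small leucine-rich proteoglycans. They were taken by symbol from a list of the family, with no threshold on a measured value, and all 9 were found among the 27179 genes of the count table. Their transcripts were measured by bulk RNA sequencing in cancer-associated fibroblasts (CAFs) from 3 mammary tumors of raGFP-Wnt1 mice. These mice carry both a Pdgfra H2B-GFP reporter allele, kept on C57BL/6, which places green fluorescent protein in the nuclei of cells with an active Pdgfra gene, and the MMTV-Wnt1 transgene, kept on FVB/NJ, in which a mammary tumor virus promoter drives Wnt1 in the mammary epithelium. GFP-positive CAFs of each tumor were sorted into CD34 negative and CD34 positive cells, CD34 being a surface sialomucin of many resting fibroblasts, which gave 3 libraries per group and 6 in all. Both groups share the reporter, the transgene and the untreated tumor, and differ only in the sort. The mice were female and their ages are not given in the sources used here. The sort holds only Pdgfra-expressing cells of 1 transgenic tumor model, and no fibroblasts of a normal gland are compared here.

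Small leucine-rich proteoglycans are secreted proteins built around a curved stretch of leucine-rich repeats, and most carry chondroitin, dermatan or keratan sulfate chains. They bind collagen fibrils and help set their width and spacing, and several hold growth factors such as transforming growth factor β in the matrix. The family is divided into classes: decorin, biglycan and asporin form class I, lumican, fibromodulin, prolargin (Prelp) and osteomodulin belong to class II, osteoglycin (Ogn) to class III, and podocan (Podn) to class V. Fibroblasts are their main source in connective tissue, and Dcn and Lum are often used to recognize fibroblasts in single-cell data.

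The number of a negative or positive library is that of its tumor. They held between 16238059 and 86609267 counts and between 14314 and 19220 genes with a count. Cd34 lay between 42.0 and 102 CPM (counts scaled to a library of equal size) in the negative and between 563 and 1605 CPM in the positive libraries (log2 fold change −3.63 ± 0.44 (SE), adjusted p = 0.0414, limma-voom). Negative library 3 stood apart: it had the fewest genes with a count, and its log2 CPM values correlated with those of the other libraries at only 0.837 to 0.883. The 9 genes together took between 1.51% and 2.13% of a library's counts, and none had fewer than 487 counts in any library, so that all 9 passed the filter on low counts.

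The start regions of 4 of the genes are shown first. Bgn and Fmod were chosen as the most abundant gene and the gene with the largest fold change of those that were higher in CD34 negative CAFs, and Omd and Ogn are neighbours on chromosome 13 whose differences had opposite signs. Each sequence is the 250 bases before the annotated start site in RefSeq on GRCm38.p6, written 5′ to 3′ on the gene's strand, which is the plus strand for these 4: chrX:73483351-73483600 for Bgn, chr1:134037004-134037253 for Fmod, chr13:49582212-49582461 for Omd and chr13:49607765-49608014 for Ogn. Capitals mark exact matches, on either strand, to 4 short motifs: the TATA box TATAAA, the core TGANTCA bound by AP-1, the core GGAATG bound by TEAD factors, and the GC box GGGCGG.
Bgn: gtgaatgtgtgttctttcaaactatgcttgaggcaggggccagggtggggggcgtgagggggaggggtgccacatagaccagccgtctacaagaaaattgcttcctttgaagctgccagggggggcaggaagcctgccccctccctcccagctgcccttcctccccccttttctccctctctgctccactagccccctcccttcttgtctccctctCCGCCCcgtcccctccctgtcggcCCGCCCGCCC
Fmod: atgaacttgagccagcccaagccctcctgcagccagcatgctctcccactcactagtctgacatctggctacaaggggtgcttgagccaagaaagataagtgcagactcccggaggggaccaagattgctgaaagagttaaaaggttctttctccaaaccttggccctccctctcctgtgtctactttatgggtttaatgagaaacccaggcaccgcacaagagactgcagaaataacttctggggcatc
Omd: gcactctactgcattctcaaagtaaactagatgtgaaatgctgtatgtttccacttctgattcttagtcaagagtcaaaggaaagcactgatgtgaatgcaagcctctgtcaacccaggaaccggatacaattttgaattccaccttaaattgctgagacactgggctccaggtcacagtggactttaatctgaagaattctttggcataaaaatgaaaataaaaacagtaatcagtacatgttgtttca
Ogn: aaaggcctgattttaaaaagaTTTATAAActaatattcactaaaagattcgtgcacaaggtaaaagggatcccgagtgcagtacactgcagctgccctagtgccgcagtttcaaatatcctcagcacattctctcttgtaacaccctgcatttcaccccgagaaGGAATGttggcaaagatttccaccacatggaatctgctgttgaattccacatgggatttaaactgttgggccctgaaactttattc
Bgn held 3 GC boxes, all on the minus strand, of which the last pair overlaps and ends directly before the start site. Ogn held 2 overlapping matches to TATAAA, 1 on each strand, and 1 GGAATG that starts 86 bases before the start site. Fmod and Omd held no match to any of the 4 motifs. Among all 32851 start regions of this length in the table, 32.7% held a GC box, 12.4% TATAAA, 12.6% GGAATG and 6.75% TGANTCA, so each of these matches is common. The regions differed in base composition: G and C made up 64.4% of Bgn, 51.2% of Fmod, 42.0% of Ogn and 38.4% of Omd, beside a median of 52.4% over all regions. The table matched 7 of the 9 genes with 8 start regions. In the other matched genes, Aspn held 2 matches to TATAAA, the first of the Podn start regions held 2 GC boxes, and Prelp and the second Podn region held none.

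The family did not move in 1 direction between CD34 negative and CD34 positive CAFs. With the tumor as a block, which compares the sorted cells of the same tumor, Bgn, Fmod, Omd and Podn were higher in CD34 negative CAFs by 1.89-fold to 4.22-fold, and Dcn, Lum and Ogn were lower by 1.66-fold to 2.17-fold. Aspn and Prelp did not pass the test. The methods of the study name no tumor term, and the main test has none. The study reports more genes as higher in CD34 negative CAFs than the main test called, so its own test may differ. In the main test 0 of 9 genes passed at an adjusted p of 0.05 (limma-voom with Benjamini-Hochberg adjustment over 14855 genes), where 0.121% of all tested genes passed. An unadjusted p under 0.05 was reached by 7 of 9 genes, against 14.3% of all genes. DESeq2 without the block called 2 of 9, Bgn and Ogn, against 5.45% of all genes, and edgeR called 0 of 9, against 0.0606%. With the tumor as a random effect, limma-voom called 3 of 9, Dcn, Bgn and Ogn, against 4.73% of all genes.

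With the tumor block, limma-voom called 7 of 9 genes, against 8.57% of all tested genes. The calls were split into 4 of 9 higher, against 4.32% of all genes, and 3 of 9 lower, against 4.25%. The count depends on the tool: edgeR's quasi-likelihood test with the block called 2 of 9, Dcn and Ogn, where it called 3.87% of all genes, and DESeq2 with the block called 6 of 9, all of these but Fmod, where it called 12.6%. Dcn and Ogn were thus the genes called by all 3 tools with the block. The 3 negative and 3 positive libraries did not overlap for 4 of 9 genes, Bgn, Fmod, Ogn and Podn, against 20.4% of all genes. The difference had the same sign in 3 of 3 tumors for 7 of 9 genes, against 46.3%. In bulk libraries, fewer cells of a type and less RNA per cell cannot be told apart.

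**Figure D1:**
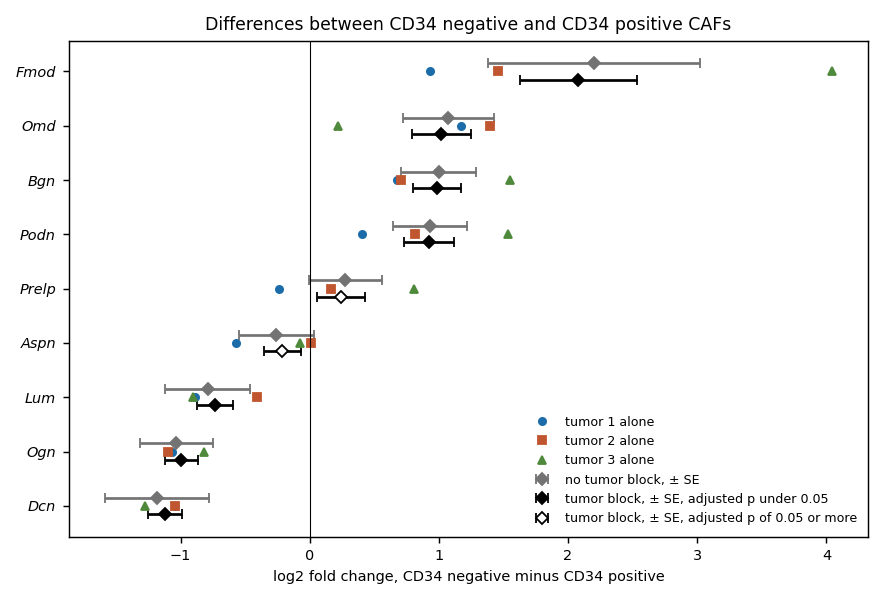
Log2 fold change of each of the 9 genes, CD34 negative minus CD34 positive, on the horizontal axis. Grey diamonds are limma-voom without and black diamonds with the tumor block, bars are standard errors, an open diamond marks an adjusted p of 0.05 or more with the block, and colored symbols are the log2 ratios of the 3 single tumors. Fmod at 2.08 with the block lies farthest to the right, with tumor 3 at 4.04, and Dcn at −1.12 lies farthest to the left.

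Dcn (gene 13179, chromosome 10, 97479500 to 97518163) encodes decorin, which binds collagen I fibrils, transforming growth factor β and several growth factor receptors. Its level was 4142, 1731 and 2895 CPM in negative libraries 1, 2 and 3 and 8533, 3565 and 6996 CPM in positive libraries 1, 2 and 3. The positive library was the higher one in every tumor, although the groups overlapped, since positive library 2 was below negative library 1. The log2 ratios within tumors 1, 2 and 3 were −1.04, −1.04 and −1.27, a narrow range. The fold change was −1.12 ± 0.13 with the block (adjusted p = 0.00154, limma-voom) and −1.18 ± 0.40 without it (adjusted p = 0.245).

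Bgn (gene 12111, chromosome X, 73483601 to 73495936) encodes biglycan, the closest relative of decorin, which also acts as a ligand of Toll-like receptors when it is released from the matrix. It moved the other way. Its level was 10995, 13348 and 12264 CPM in the negative and 6873, 8172 and 4178 CPM in the positive libraries of tumors 1, 2 and 3. Every negative library was above every positive one, and positive library 3 was the lowest. The ratio within tumors was 0.68, 0.71 and 1.55 on the log2 scale. With the block the fold change was 0.99 ± 0.18 (adjusted p = 0.0123, limma-voom; 0.0695 in edgeR), and without it 1.00 ± 0.29 (adjusted p = 0.182).

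Aspn (gene 66695, chromosome 13, 49544443 to 49567565) encodes asporin, a class I member that binds collagen and transforming growth factor β and carries no glycosaminoglycan chain. Its level was 544, 410 and 407 CPM in the negative and 807, 406 and 430 CPM in the positive libraries. Apart from both libraries of tumor 1, the values were nearly level. The fold change of −0.21 ± 0.15 with the block did not pass (adjusted p = 0.443, limma-voom), and it turned to 0.10 without positive library 1 in the fit without the block, where it was −0.26 ± 0.29 with all libraries (adjusted p = 0.725). Class I thus held a gene that was lower, a gene that was higher and a gene that did not pass the test in CD34 negative CAFs.

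**Figure D2:**
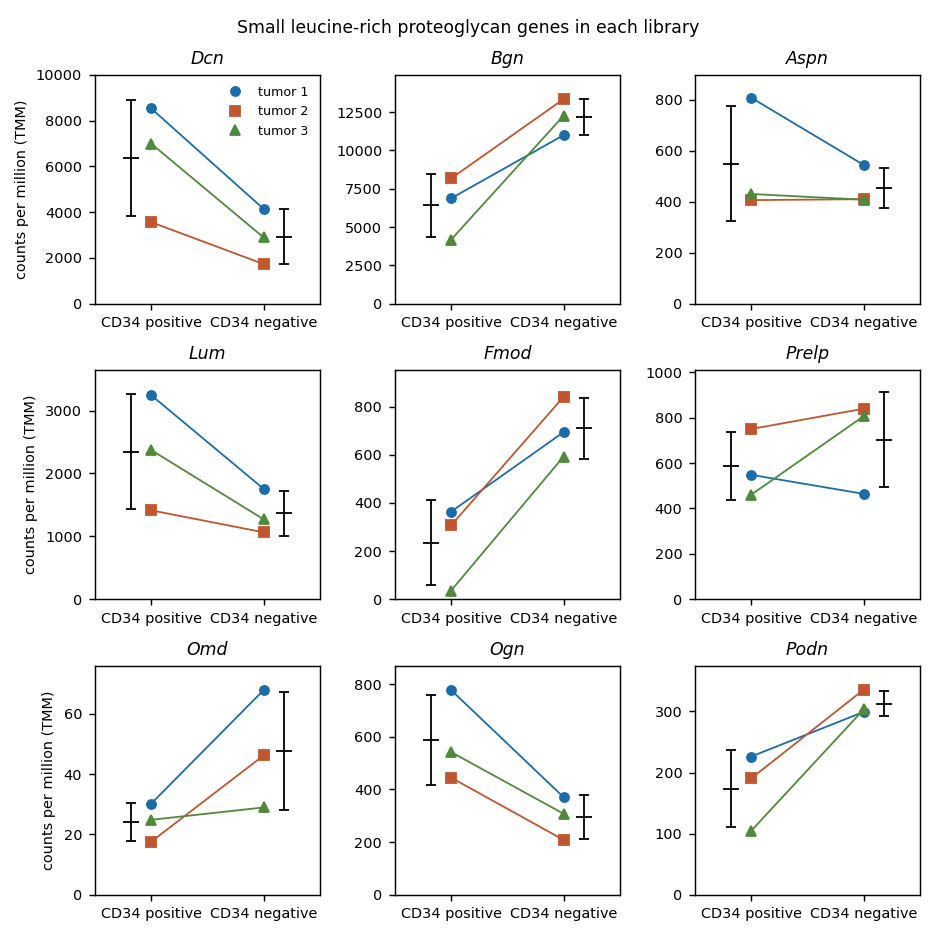
Level of each gene in CPM, scaled by library size and TMM factor, on a linear axis from 0. Lines join the CD34 positive and CD34 negative library of a tumor, and black bars beside them give the group mean ± SD (n = 3). All 3 lines fall toward CD34 negative for Dcn, Lum and Ogn and rise for Bgn, Fmod, Omd and Podn, whereas Aspn and Prelp have lines in both directions.

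Lum (gene 17022, chromosome 10, 97565501 to 97572703) encodes lumican, a keratan sulfate proteoglycan that regulates collagen fibril assembly. Its level was 1756, 1064 and 1272 CPM in the negative and 3248, 1415 and 2374 CPM in the positive libraries. The order of the tumors was the same as for Dcn in both groups, with tumor 1 highest and tumor 2 lowest, and the groups overlapped. The log2 ratios within tumors were −0.89, −0.41 and −0.90. Lum passed with the block at −0.73 ± 0.14 (adjusted p = 0.0140, limma-voom; 0.0710 in edgeR) and not without it at −0.79 ± 0.33 (adjusted p = 0.327). Without positive library 1 the value without the block was −0.49.

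Fmod (gene 14264, chromosome 1, 134037254 to 134048280) encodes fibromodulin, which binds the same stretch of collagen I as lumican and also guides collagen crosslinking. Its level was 694, 841 and 593 CPM in the negative and 364, 307 and 35.9 CPM in the positive libraries. No positive library reached the negative ones, and positive library 3 was far below the other positive libraries. The log2 ratios within tumors were 0.93, 1.46 and 4.04, with tumor 3 far above the others. With the block the fold change was 2.08 ± 0.45 (adjusted p = 0.0228, limma-voom), with an adjusted p of 0.115 in edgeR and 0.0871 in DESeq2, and without it 2.20 ± 0.82 (adjusted p = 0.287). Leaving out tumor 3 lowered it to 1.18 with the block (adjusted p = 0.000812, limma-voom), and leaving out positive library 3 lowered it to 1.06 without the block. The smaller adjusted p without tumor 3 rests on tumors 1 and 2 alone and mainly on the variance shared across genes. It is no stronger evidence than that of all 3 tumors.

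Prelp (gene 116847, chromosome 1, 133910304 to 133930102, minus strand) encodes prolargin, which links basement membrane perlecan to collagen. Its level was 464, 839 and 806 CPM in the negative and 548, 750 and 460 CPM in the positive libraries. The sign differed between tumors, at −0.24, 0.16 and 0.81 on the log2 scale. The fold change of 0.25 ± 0.19 with the block (adjusted p = 0.492, limma-voom) and 0.28 ± 0.28 without it (adjusted p = 0.693) did not pass, and it turned to −0.06 with the block when tumor 3 was left out. Another gene, Gm15851, which has no counts of its own here, shares 350 of the 3615 exon bases of Prelp. Since the library kit does not mark strand, reads of both genes cannot be told apart there.

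Omd (gene 27047, chromosome 13, 49582462 to 49592612) encodes osteomodulin, an acidic keratan sulfate proteoglycan best known from bone. It was the least abundant of the 9 genes, at 67.8, 46.2 and 28.9 CPM in the negative and 30.1, 17.5 and 24.8 CPM in the positive libraries. Negative library 3 was below positive library 1, so the groups overlapped. The log2 ratios within tumors were 1.17, 1.40 and 0.22. The fold change was 1.02 ± 0.23 with the block (adjusted p = 0.0243, limma-voom; 0.0997 in edgeR) and 1.07 ± 0.35 without it (adjusted p = 0.226). Without tumor 2 the block fit gave 0.71 and the call was lost (adjusted p = 0.204).

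Ogn (gene 18295, chromosome 13, 49608015 to 49624501) encodes osteoglycin, also called mimecan, a class III member found in bone, vessel walls and skin. Its level was 370, 208 and 307 CPM in the negative and 777, 445 and 542 CPM in the positive libraries. Every positive library was above every negative one. The ratio within tumors was −1.07, −1.09 and −0.82 on the log2 scale. The fold change was −0.99 ± 0.13 with the block (adjusted p = 0.00233, limma-voom) and −1.03 ± 0.28 without it (adjusted p = 0.160).

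Podn (gene 242608, chromosome 4, 108014793 to 108031954, minus strand) encodes podocan, a class V member that binds collagen I and slows the growth of vascular smooth muscle cells. Its level was 299, 336 and 303 CPM in the negative and 226, 190 and 105 CPM in the positive libraries. The negative libraries were close together and all above the positive ones, among which library 3 was the lowest, as for Bgn and Fmod. The log2 ratios within tumors were 0.40, 0.82 and 1.54. The fold change was 0.92 ± 0.19 with the block (adjusted p = 0.0198, limma-voom; 0.0810 in edgeR) and 0.93 ± 0.29 without it (adjusted p = 0.205). It was 0.60 with the block without tumor 3 (adjusted p = 0.0213).

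Negative library 3, which stood apart over all genes, did not set these directions. Without negative library 3, and without the block, the fold changes were 1.00 for Bgn, 2.32 for Fmod, 1.34 for Omd, 0.95 for Podn, −1.24 for Dcn, −0.77 for Lum and −1.09 for Ogn. Those of Aspn and Prelp were then −0.19 and 0.16.

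To compare the genes with each other, CPM were divided by gene length in kilobases. In CD34 negative CAFs Bgn led at 5108 ± 493 CPM per kilobase (SD, n = 3), the rank of 3 among all tested genes, and all its libraries were above all those of Dcn. Dcn at 1403 ± 579 and Lum at 657 ± 171 overlapped, and both were above the rest. Fmod at 248 ± 43.7, Prelp at 195 ± 57.7 and Aspn at 193 ± 33.2 could not be separated, nor could Ogn at 116 ± 32.2 and Podn at 98.7 ± 6.31, and Omd closed the order at 27.2 ± 11.1. In CD34 positive CAFs Dcn at 3054 ± 1221 and Bgn at 2682 ± 853 overlapped at the top, at ranks 7 and 10 of all tested genes, and Lum followed at 1130 ± 442. Aspn at 233 ± 95.6, Ogn at 231 ± 67.3 and Prelp at 163 ± 41.2 formed the next level, above Fmod at 82.3 ± 61.2 and Podn at 54.8 ± 19.7, which overlapped, and Omd at 13.8 ± 3.61. By rank among all tested genes, Fmod stood at 235 in the negative and at 806 in the positive group, and Ogn at 532 and 283.

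The make-up of the family therefore differed more than its sum. The summed level of the 9 genes per length lay between 7846 and 8318 CPM per kilobase in the negative and between 6546 and 9554 in the positive libraries. Bgn supplied 55.3%, 71.2% and 64.4% of it in negative libraries 1, 2 and 3 and 30.1%, 52.3% and 25.6% in positive libraries 1, 2 and 3. Dcn supplied 23.9%, 10.6% and 17.4% in the negative and 42.9%, 26.1% and 49.1% in the positive libraries. The share of Lum was 10.2%, 6.54% and 7.69% against 16.4%, 10.4% and 16.7%. In each tumor the negative library had the larger Bgn share and the smaller Dcn and Lum shares, with tumor 2 richest in Bgn in both groups. Shares of a sum are bound together, so a larger Bgn share lowers the others. The share of Aspn, which did not pass the test, was also smaller, at 2.78%, 2.22% and 2.17% against 3.59%, 2.63% and 2.67%.

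Ratios within a library need no scaling between libraries. Per length, Bgn was 2.32, 6.73 and 3.70 times Dcn in the negative and 0.703, 2.00 and 0.521 times Dcn in the positive libraries, and the groups did not overlap. Fmod amounted to 28.7%, 57.4% and 33.8% of Lum in the negative and to 8.12%, 15.7% and 1.10% in the positive libraries. Omd amounted to 26.6%, 32.2% and 13.7% of Ogn against 5.63%, 5.72% and 6.65%. These 3 ratios were formed after the directions were known and are given as descriptions.

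**Figure D3:**
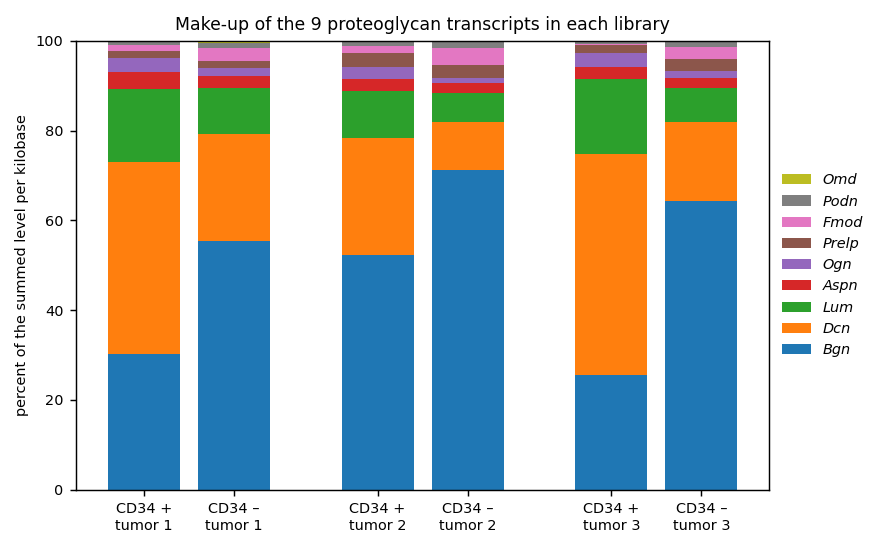
Share of each gene in the summed level per kilobase of the 9 genes, in percent, as stacked bars for the 6 libraries grouped by tumor. In each tumor the CD34 negative library has the larger Bgn segment, 55.3% to 71.2% against 25.6% to 52.3%, and the smaller Dcn and Lum segments.

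Most of these genes lie in clusters with other members of the family. On chromosome 10, Dcn and Lum are 47.3 kb apart on the same strand, followed by Kera, which encodes the corneal proteoglycan keratocan, and Epyc, which encodes the cartilage proteoglycan epiphycan. Dcn and Lum were both lower in CD34 negative CAFs. On chromosome 13, Ecm2, Aspn, Omd and Ogn follow each other on the same strand with gaps of 11.7, 14.9 and 15.4 kb. Here the neighbours did not move together: Omd was higher at 1.02, Ogn was lower at −0.99, and Aspn and Ecm2 at −0.21 and 0.01 did not pass. On chromosome 1, Prelp and Fmod lie 107.2 kb apart on opposite strands, and Fmod alone of these passed. The gene Cenpp spans the chromosome 13 cluster, but it held 354 counts over all libraries and shares 7 exon bases with Aspn.

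**Figure D4:**
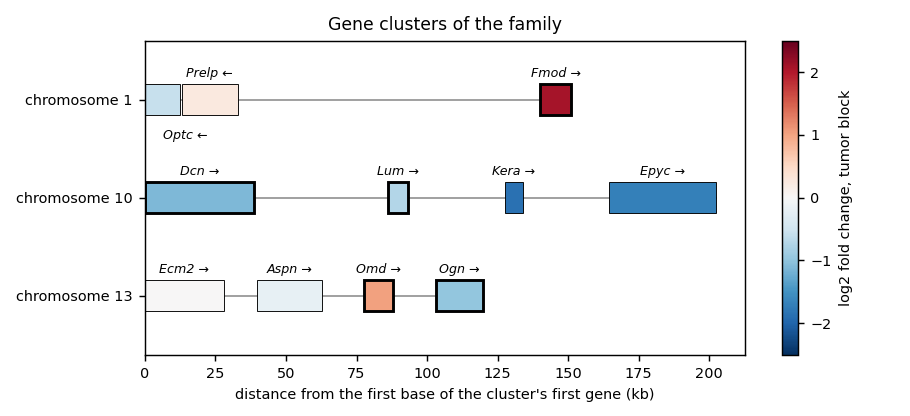
Position of the family genes in the 3 clusters, as distance in kilobases from the first base of the first gene, drawn to scale with arrows for the strand. Fill gives the log2 fold change with the tumor block (red higher, blue lower in CD34 negative), and thick outlines mark an adjusted p under 0.05. Dcn and Lum are both blue with thick outlines, whereas the neighbours Omd and Ogn are red and blue.

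Of the 9 other family genes listed, 8 passed the filter on low counts and 0 passed the test with or without the block (limma-voom). Without the block 0 of the 8 reached an unadjusted p under 0.05 in limma-voom, against 14.3% of all genes. With the block 2 did, Kera and Epyc, a count whose share over all genes was not computed. DESeq2 with the block called the same 2, where it called 12.6% of all genes. With the block edgeR called 0, against 3.87% of all genes. Ecm2, which encodes a matrix protein related to decorin, was the most abundant at 78.6 to 161 CPM in the negative and 67.9 to 215 CPM in the positive libraries, with a fold change of 0.01 ± 0.16 with the block. Tsku, which encodes the secreted signaling modulator tsukushi, lay between 27.0 and 46.1 CPM against 30.1 to 49.6 CPM, at −0.11 ± 0.15. Kera (−1.87 ± 0.71, adjusted p = 0.149), Epyc (−1.70 ± 0.67, adjusted p = 0.161), Optc (−0.58), Chad (0.48), Chadl (0.12) and Podnl1 (0.82) reached at most 16.3 CPM in any library. With the block, Epyc ranged from −2.81 without tumor 2 (adjusted p = 0.0216) to −0.40 without tumor 1, and Kera from −3.17 without tumor 1 to −1.38 without tumor 3 (adjusted p = 0.0310).

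The proteins that bind, build or cut these proteoglycans were examined by 7 lists, which hold 98 genes with the other family genes, 86 of them tested. Without the block 0 of 86 passed in limma-voom and in edgeR, against 0.121% and 0.0606% of all genes. DESeq2 called 10, against 5.45% of all genes, and limma-voom gave 27 of the 86 an unadjusted p under 0.05, against 14.3%. With the block 28 passed, 16 higher and 12 lower in CD34 negative CAFs, where 8.57% of all genes passed. Of the 24 called genes named here, 15 kept the call with the block when each tumor was left out in turn, and 7 were also called by edgeR with the block. The fits without a tumor have little left to estimate the spread of a gene, so kept calls are weak evidence. The calls went in both directions in each list that held any. Beside the counts per list below, 4.32% of all genes were called higher and 4.25% lower with the block.

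Fibrillar and fibril-associated collagens are the main ligands of the family. Of 14 tested, 3 were higher and 1 lower with the block, and the median fold change was 0.27 without the block, beside −0.03 over all tested genes. Col11a1, a minor chain that seeds thin fibrils, was at 857, 505 and 481 CPM in the negative and 377, 190 and 31.6 CPM in the positive libraries (2.08 ± 0.41, adjusted p = 0.0156). Like Fmod, it was lowest in positive library 3, and its fold change was 1.29 with the block without tumor 3. Col12a1, a fibril-associated collagen, was at 6357, 10873 and 9815 CPM against 2683, 5536 and 984 CPM (1.88 ± 0.37, adjusted p = 0.0147), and at 1.10 without tumor 3. Neither passed in the other tools with the block: Col11a1 had an adjusted p of 0.0883 in edgeR and 0.0531 in DESeq2, and Col12a1 0.0886 and 0.0976. Col5a2 (0.64 ± 0.13, adjusted p = 0.0186) was also higher, with the call lost without tumor 2. Col14a1, a fibril-associated collagen that binds decorin, was the gene that was lower, at 1634, 905 and 1983 CPM against 2524, 2579 and 3638 CPM (−1.001 ± 0.17, adjusted p = 0.00853).

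Of the 5 lysyl oxidase genes, whose enzymes crosslink collagen, 2 were higher and 2 lower with the block. Loxl3 (1.29 ± 0.17, adjusted p = 0.00281) and Loxl1 (0.64 ± 0.14, adjusted p = 0.0242) were higher. Loxl4 (−1.25 ± 0.17, adjusted p = 0.00310) and Loxl2 (−0.63 ± 0.14, adjusted p = 0.0227) were lower. The calls of Loxl1 and Loxl2 were lost when a tumor was left out, Loxl1 without tumor 1 or 2 and Loxl2 without tumor 2.

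Of 19 tested genes for chondroitin and dermatan sulfate synthesis, the chains of decorin and biglycan, 3 were higher and 2 lower with the block, and the list median without it was 0.13. Chpf, a chondroitin polymerizing factor, was at 387, 306 and 225 CPM in the negative and 182, 136 and 107 CPM in the positive libraries (1.11 ± 0.12, adjusted p = 0.00131). Csgalnact1, which starts the chondroitin chain, was higher at 1.00 ± 0.20 (adjusted p = 0.0147) and at 0.65 without tumor 3, and so was the 4-O-sulfotransferase Chst11 at 0.85 ± 0.22 (adjusted p = 0.0446), which lost the call without tumor 3. Ust, a sulfotransferase for uronic acid residues, was lower at −0.70 ± 0.15 (adjusted p = 0.0214), a call lost without tumor 1 or 2. Of the 5 tested genes for keratan sulfate, the chain of lumican and fibromodulin, 0 passed in limma-voom, edgeR or DESeq2 with or without the block. With the block limma-voom gave 1 gene an unadjusted p under 0.05, a count whose share over all genes was not computed. The list median without the block was 0.28.

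Among 12 tested proteases that process or cleave the core proteins, 2 were higher and 2 lower with the block, and the median without it was −0.11. Mmp13, a collagenase that also cuts biglycan and fibromodulin, was higher at 1.15 ± 0.26 (adjusted p = 0.0255). It ranged from 0.84 to 1.77 with the block when a tumor was left out. The aggrecanase Adamts4 was also higher at 0.68 ± 0.14 (adjusted p = 0.0201). The related Adamts5 was lower at −1.07 ± 0.22 (adjusted p = 0.0170) and at −0.69 without tumor 3, and so was Adamts1 at −0.60 ± 0.15 (adjusted p = 0.0427). Leaving out tumor 1 ended the call of Adamts4, and leaving out tumor 2 or 3 that of Adamts1.

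Among 14 tested ligands and receptors bound by the core proteins, 3 were higher and 3 lower with the block, and the median without it was −0.34. Tgfb1, the ligand held by decorin, biglycan and fibromodulin, was at 70.0, 102 and 96.4 CPM in the negative and 24.5, 44.4 and 27.4 CPM in the positive libraries (1.45 ± 0.17, adjusted p = 0.00167). It had the smallest adjusted p without the block among the 98 genes listed, 0.0811. Ccn4, a matricellular Wnt target whose protein binds decorin and biglycan, was higher at 0.87 ± 0.19 (adjusted p = 0.0224) and at 0.55 without tumor 3. Met, the hepatocyte growth factor receptor and a receptor of decorin, was lower at −1.61 ± 0.36 (adjusted p = 0.0247), with all its libraries at or under 16.0 CPM and the call lost without tumor 1. Bmp2, bound by biglycan, was lower at −1.54 ± 0.40 (adjusted p = 0.0472), and the call was lost without tumor 1 or 2.

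Of 9 tested other matrix proteoglycans, 3 were higher and 2 lower with the block, and the median was 0.38 without it and 0.54 with it. Agrn, which encodes the heparan sulfate proteoglycan agrin, was higher at 1.34 ± 0.14 (adjusted p = 0.000851), and Srgn, which encodes the intracellular granule proteoglycan serglycin, at 1.13 ± 0.19 (adjusted p = 0.00731). Prg4, which encodes the joint lubricant lubricin, was at 26.8, 56.3 and 64.6 CPM in the negative and 98.0, 556 and 251 CPM in the positive libraries (−2.45 ± 0.26, adjusted p = 0.00103). Vcan, the large hyaluronan-binding proteoglycan versican, was lower at −0.67 ± 0.12 (adjusted p = 0.0106).

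**Figure D5:**
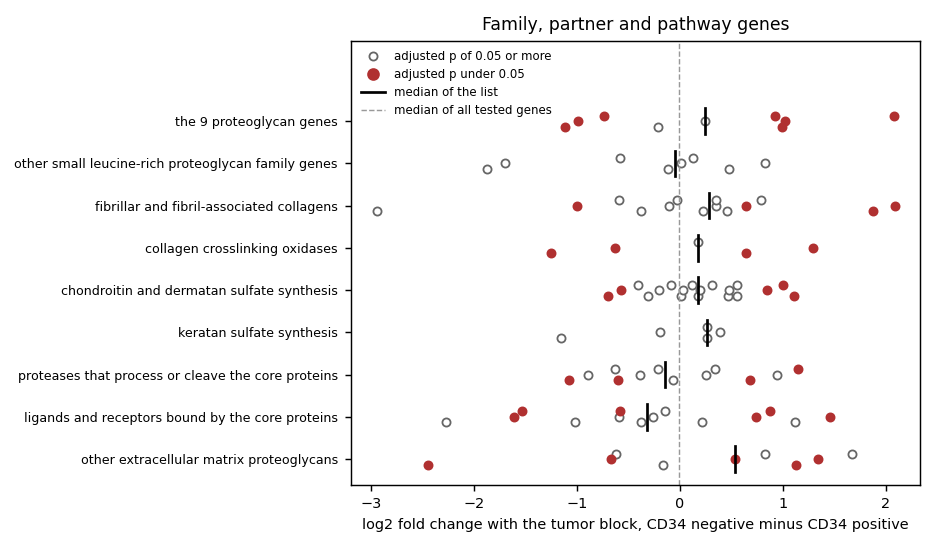
Log2 fold change with the tumor block of each tested gene in the 9 proteoglycan genes and the 8 other lists, 1 circle per gene, filled where the adjusted p is under 0.05. Black bars are list medians and the dashed line is the median of all tested genes. In the list of the 9 genes 7 circles are filled, 4 to the right and 3 to the left, and the other family genes and the keratan sulfate genes have no filled circle.

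Markers of other cells were measured beside these results. The 6 fibroblast markers summed to 21091 to 35006 CPM in the negative and 22100 to 22901 CPM in the positive libraries, most of it Col1a2. Among them Pdgfrb, a receptor that pericytes also express, was called higher with the block (0.94 ± 0.16, adjusted p = 0.00714, limma-voom), at 660 to 735 CPM against 254 to 450 CPM. Pericyte markers moved with the sort: their sum was 184 to 228 CPM in the negative and 46.5 to 100 CPM in the positive libraries. All 5 were apart between the groups, against 20.4% of all genes. With the block Mcam, Notch3 and Cspg4 were higher, Kcnj8 was lower and Rgs5 did not pass, where 8.57% of all genes passed. Their part in the results was not tested. Epithelial markers summed to 50.2 to 144 CPM against 17.1 to 131 CPM, with 0 of 6 called. All 6 had a fold change above 0 without the block. Their median was 0.82 without and 0.53 with the block, beside −0.03 and −0.01 over all tested genes. Of the 6, 4 had the same sign in 3 of 3 tumors, against 46.3% of all genes. The part of epithelial cells in the results was not tested. Tendon and cartilage markers, which mark cells rich in Fmod, summed to 59.5 to 132 CPM against 32.9 to 135 CPM, with 0 of 7 called. Comp was the largest term in every library but positive library 3, where Sox9 was. The tendon transcription factors Scx and Mkx, named after their values were seen, were at most 4.49 CPM. With the block Scx was at 2.27 ± 0.98 (adjusted p = 0.199, limma-voom), with the groups apart. Mkx was at 2.46 ± 0.85 (adjusted p = 0.117), with the groups overlapping. Sox9 of the same list went the other way at −0.67 ± 0.21 (adjusted p = 0.0882), also with the groups apart. These 3 of the 7 genes kept their sign in 3 of 3 tumors, as 46.3% of all genes did. Comp at 0.85, Acan at 0.83, Tnmd at −0.01 and Col2a1 at −2.95 did not keep it. The part of these markers in the Fmod result was not tested. Endothelial markers stayed at or under 14.8 CPM in sum, Schwann cell markers at or under 22.0 CPM, macrophage markers at or under 16.5 CPM, keratinocyte markers at or under 10.8 CPM and muscle markers at or under 13.3 CPM. Of these lists, Krtdap was called lower among the keratinocyte and Des higher among the muscle markers, and Myf5 was at 0 in every library. Adipocyte markers stayed at or under 0.88 CPM in sum, with Cidec and Lep at 0 in every library.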

How the data were processed

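RNA was isolated from snap-frozen sorted CAFs, and libraries were made with the TruSeq RNA v2 kit, which does not mark strand, and sequenced on an Illumina NextSeq 500. The authors aligned reads to GRCm38/mm10 and counted them per gene with featureCounts, and the deposited values are raw counts, 1 column per library. Whether reads with several matches were counted was not given in the sources used here. Groups and tumor numbers came from the sample titles. Whether each tumor came from its own mouse is not given in the sources used here.

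The filterByExpr function (minimum count 10) kept 14855 of 27179 genes. TMM factors were computed, and limma-voom compared the groups with two-sided tests and Benjamini-Hochberg adjustment over all tested genes at 0.05. The software was limma 3.58.1, edgeR 4.0.16 and DESeq2 1.42.0 under R 4.3.3. Both libraries of a pair came from the same tumor, and deviations from the group means correlated within tumors 1, 2 and 3 at 0.373, 0.350 and 0.219. The tumor was therefore fitted as a block beside the main test, which has no tumor term because the methods of the study name none. A block fit without a tumor leaves little to estimate the spread of a single gene. Its p-values rest mainly on the variance that limma-voom shares across genes. CPM, also those summed over markers, use library totals multiplied by the TMM factors. With 3 libraries per group, an exact permutation test of a single value could not go below 0.1. Libraries held 16238059 to 86609267 counts, and the smallest count of the 9 genes in a library was 487. Levels per kilobase use the gene lengths of the count table.

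The tests were tried on simulated data. The genes, lists and tests were chosen with earlier results of these data known. Named are the 9 genes, the other tested family genes, and of each further list the genes called without the block and up to 4 called with it that had the largest fold change. Fold changes of these further genes under the alternatives were added after the data were seen. Gene positions and start regions are from RefSeq on GRCm38.p6. Exon overlaps with other genes, on either strand, were counted in an annotation of the same build. Alternatives covered scaling, the filter, the annotation, the test, the tumor term and the libraries.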

Additional observations from a re-analysis of the deposited data

How the results depend on the processing

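Of 216 alternative fits of the 9 fold changes, 173 kept both the direction and the side of the threshold, 40 passed the threshold that the main test did not reach, and 3 changed sign. The reversals were those of Aspn, which ranged from −0.43 to 0.10 when a library or tumor was left out, and of Prelp, which ranged from −0.014 to 0.53 and was −0.057 with the block without tumor 3. The main test called 0 of the 9 genes. DESeq2 called 2, against 5.45% of all genes, and the tumor as a random effect 3, against 4.73%. The tumor block called 7 with limma-voom, 2 with edgeR and 6 with DESeq2, against 8.57%, 3.87% and 12.6% of all genes. With the block and without tumors 1, 2 and 3 the counts were 7, 6 and 7, against 7.61%, 5.82% and 13% of all genes. The p-values of these fits rest mainly on the variance shared across genes, so the counts say little about stability. Of the partner and pathway genes, the main test called 0, DESeq2 10 against 5.45% of all genes, and the random effect 9 against 4.73%. Sample quality weights called 1 of them, where 161 of 14855 genes were called. The tumor block called 28 with limma-voom, 7 with edgeR and 31 with DESeq2, against 8.57%, 3.87% and 12.6% of all genes. It called 26, 21 and 32 with limma-voom without tumors 1, 2 and 3. Leaving out a library or tumor without the block gave 0 to 1 calls among them. Levels per kilobase moved by less than 1 SD under library totals alone and without negative library 3. Scaling moved the median of all genes to between −0.05 and −0.03.

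For other named genes, added after the data were seen, 23 of 790 fits changed sign, all of them other family genes without a call. When a library or tumor was left out, Chad ranged from −0.18 to 3.75, Chadl from −0.40 to 0.60, Ecm2 from −0.31 to 0.53, Optc from −1.70 to 0.11 and Tsku from −0.36 to 0.055. Ecm2 was −0.11 in edgeR, −0.13 in DESeq2 and −0.14 with sample quality weights. Chadl was −0.062 with the block in edgeR and −0.073 in DESeq2. With the block, Chad was −0.73 without tumor 3, Chadl was −0.13 without tumor 1 and −0.014 without tumor 2, Ecm2 was −0.10 without tumor 2 and −0.12 without tumor 3, and Optc was 0.090 without tumor 3. Cd34 kept its direction in every fit and missed the threshold in 8, with an adjusted p of up to 0.194 without tumor 3. The cause of these changes was not tested.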
